A study of Mus musculus with 6 samples.

Results

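The genes described here encode the matrix metalloproteinases (Mmp), the Adam and Adamts metalloproteinases, the Adamts-like proteins (Adamtsl) and the tissue inhibitors of metalloproteinases (Timp). The families were chosen with earlier results of these data known, and their genes by symbol from the authors' deposited Cuffdiff gene table. This gave 81 rows of 36699 in all. By family these were 22 Mmp, 31 Adam, 19 Adamts, 5 Adamtsl and 4 Timp genes. The members are related by descent and by domain, so they are not independent observations.

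RNA came from mouse A2Lox.cre embryonic stem (ES) cells, a line into which a doxycycline-inducible transgene can be placed, harvested on day 3 of culture as embryoid bodies. The 3 libraries with doxycycline came from cells given the drug for 24 hours from day 2, which switched on a Flag-tagged version of Sp5, a zinc-finger transcription factor of the Sp family and known target of Wnt signalling. The 3 libraries without doxycycline came from the same inducible cells left untreated. All cells had been kept on primary mouse embryonic fibroblasts, which were stripped away before embryoid bodies were formed, and the poly(A) RNA libraries followed a TruSeq RNA protocol. The comparison asked which genes Sp5 regulates. No library of cells that received the drug but lack the transgene was analysed here, and effects of doxycycline and of Sp5 cannot be told apart. Doxycycline is itself known to inhibit matrix metalloproteinase activity at the protein level, which RNA levels do not measure.

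Each gene has 1 value per group in FPKM (fragment counts divided by transcript length and library size), into which the authors combined the 3 libraries. These values therefore carry no SD and no n, values per library were not analysed here, and the sequencing depth is unknown. A gene "rose" or "fell" here if its q was under 0.05 in the authors' deposited table with status OK, and the ratio is always with doxycycline over without. In a bulk culture, more cells that express a gene and more RNA per cell cannot be told apart. Sp5 itself stood at 126 FPKM with doxycycline and 0.769 FPKM without.

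Matrix metalloproteinases are zinc-dependent enzymes that are made as inactive precursors and cut collagens, laminins and other matrix proteins at the cell surface or outside the cell. Adam proteins sit in the membrane, where the catalytic ones shed the outer parts of receptors, ligands and adhesion proteins, among them Notch, cadherins and precursors of epidermal growth factor family ligands. Adamts proteases are secreted and act on proteoglycans, procollagens and other matrix proteins, and Timp proteins block many of these enzymes. In the early embryo such proteases are known for their part in the remodelling of basement membrane when cells leave the epiblast.

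Of the 81 members, 53 were tested by the authors (65.4%, against 50.5% of all rows) and 28 carried the status NOTEST, the highest of them at 0.0663 FPKM. Of the 53, 13 rose, 5 fell and 35 had no call in the authors' deposited table. The called share was 34.0% of the tested members, against a background of 23.2% of all 18537 tested genes. Rises made up 24.5% of the tested members and 10.5% of all tested genes. Falls made up 9.43% of the tested members and 12.7% of all tested genes, so the share of falls was near the background. The median log2 fold change was 0.14 over the tested members and -0.03 over all tested genes. By family it was 0.15 for the Mmp, 0.04 for the Adam, 0.55 for the Adamts and -0.24 for the Timp genes tested.

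Calls were more frequent at higher levels. Among the 23 members that reached 1 FPKM in the higher group, 9 rose, 4 fell and 10 had no call in the authors' deposited table. Of these 23 members 56.5% were called, against 28.3% of all tested genes at that level. The share called higher was 39.1% of the members and 11.5% of all such genes, and the share called lower 17.4% of the members and 16.8% of all such genes. Among the 30 tested members under 1 FPKM, 4 rose and 1 fell, which is 16.7% against 13.2% of all tested genes at that level. Most changes were small. The 13 rises ran from 1.23-fold to 3.22-fold with a median of 1.59-fold, and the 5 falls from 1.51-fold to 1.84-fold with a median of 1.64-fold. A rise of at least 2-fold was reached by 4 members (Adamts7, Adamts10, Mmp2 and Adamts20) and a fall of that size by none, where the background was 5.76% of tested genes in either direction and 3.54% upward. The plot of group values at 1 FPKM or more and the plot of fold changes show these members.

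**Figure D1:**
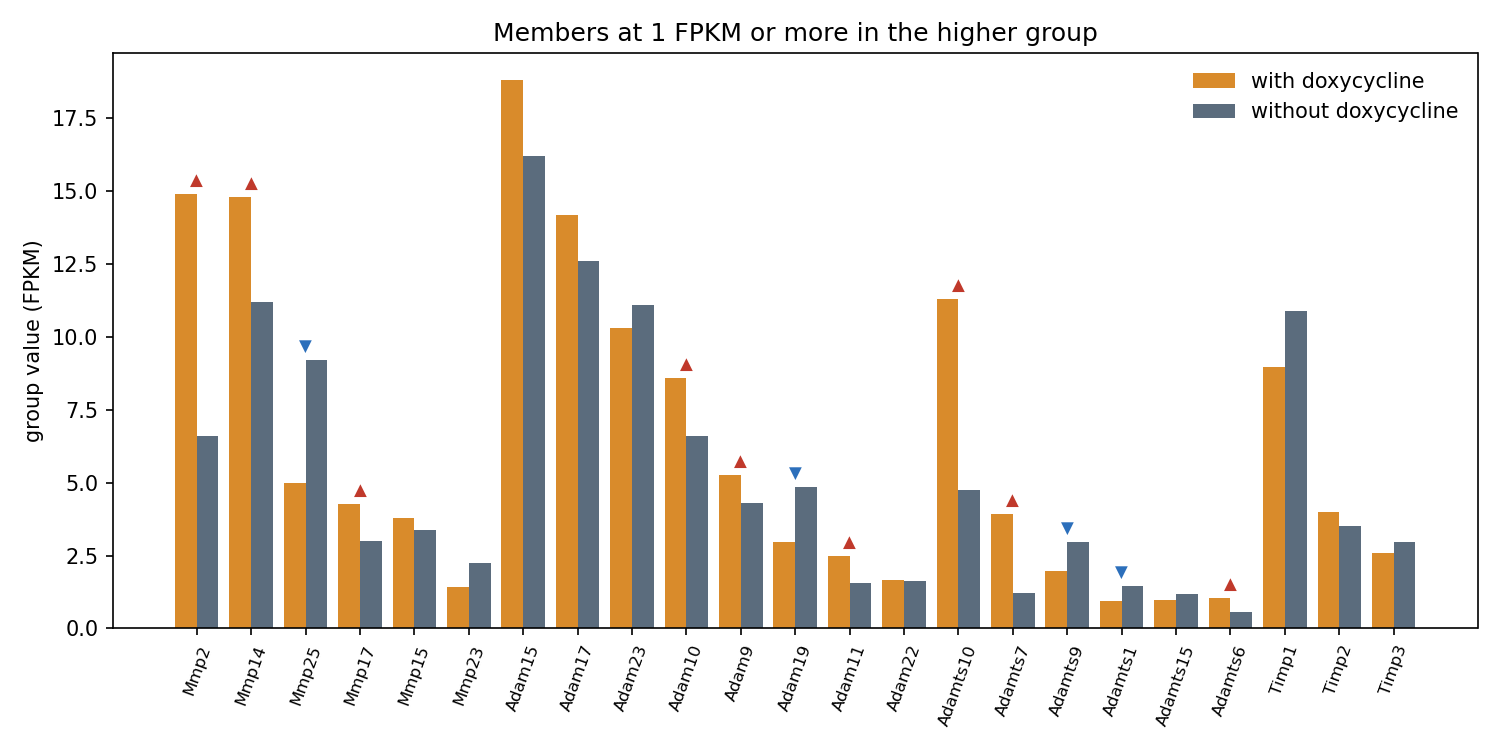
Group values in FPKM (vertical axis, from 0) of the 23 members that reached 1 FPKM in either group, ordered by family; the left bar of each pair is with doxycycline and the right bar without, with no error bars because each group has a single value. Upward triangles mark the 9 genes that rose and downward triangles the 4 that fell; Mmp2 and Adamts10 show the widest upward gaps and Mmp25 the widest downward one.

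**Figure D2:**
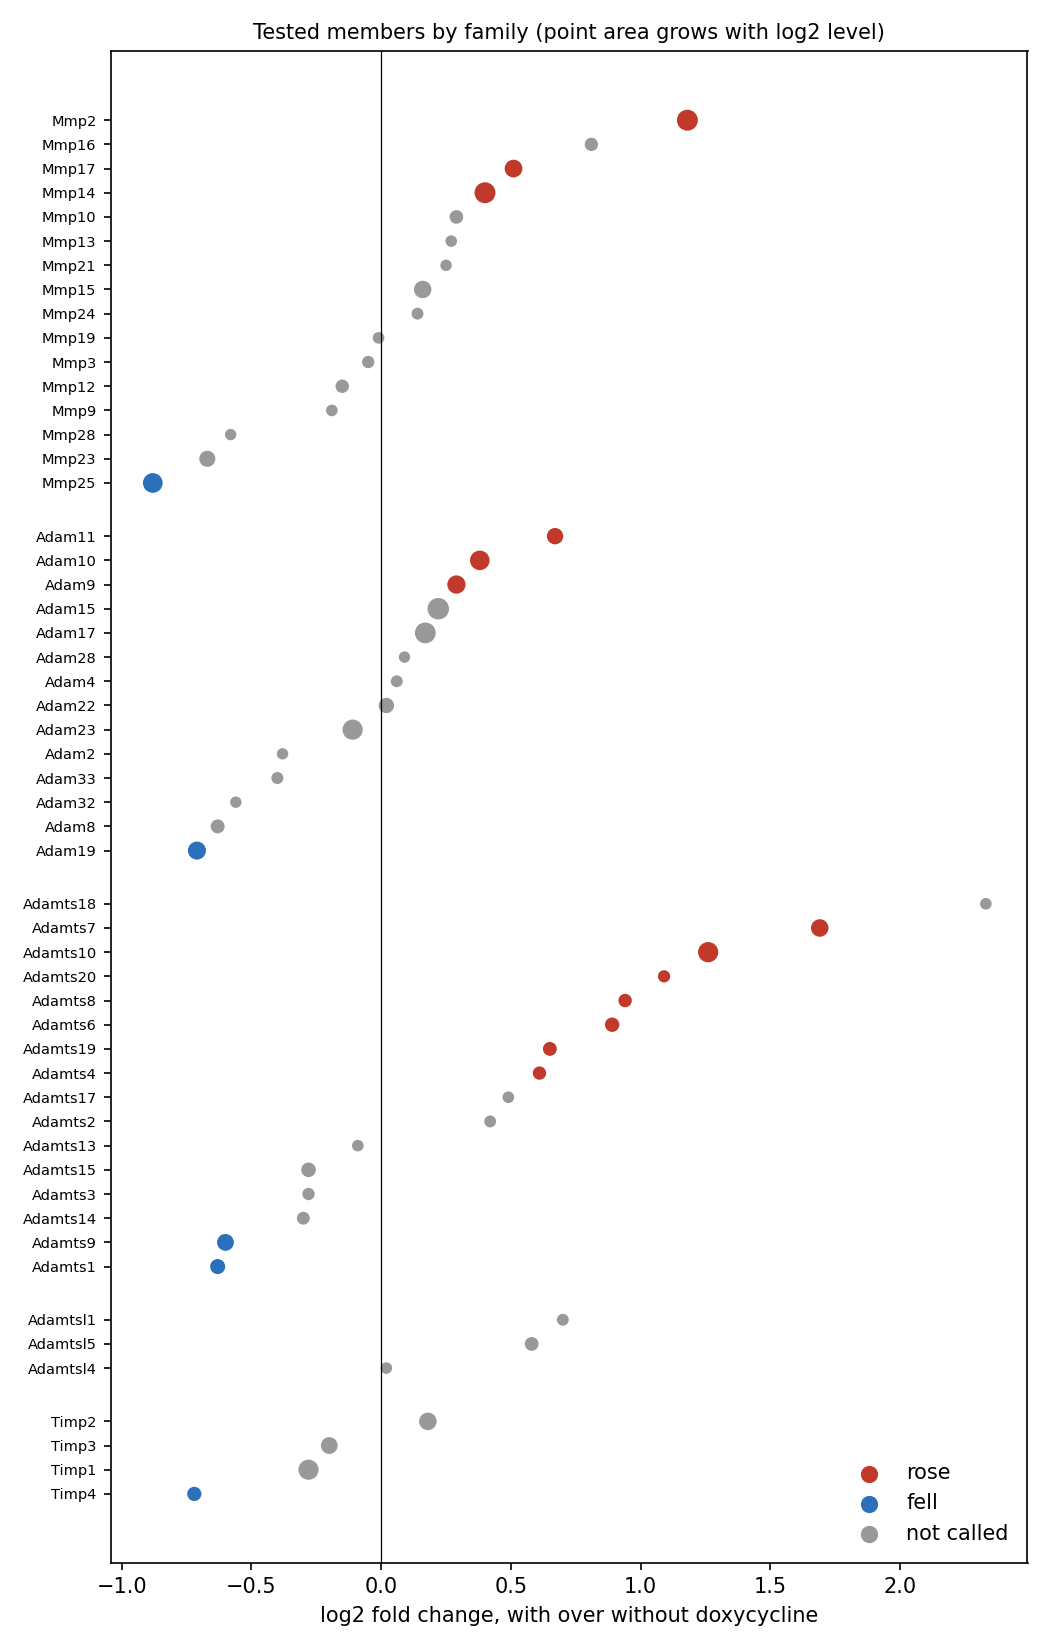
Log2 fold change with over without doxycycline (horizontal axis) of the 53 tested members by family, in the order Mmp, Adam, Adamts, Adamtsl and Timp from top to bottom. Point area grows with the log2 level; the 13 rises are red, the 5 falls blue and the 35 uncalled genes grey.

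Sequences before the transcription start are shown for the called members at 1 FPKM or more that have a single annotated start in the RefSeq promoter table, because Sp factors are known to bind GC boxes. Each window is the 250 bases before the start, on the gene's own strand, read from RefSeq for build GRCm38.p6. Capitals mark the GC box, GGGCGG or its reverse complement CCGCCC, and would also mark the Tcf/Lef words CTTTGAT and CTTTGTT on either strand, none of which occurred in these 5 windows. Mmp14 (chr14:54431348-54431597, plus strand) and Adam10 (chr9:70678732-70678981, plus strand) rose. Adamts9 (chr6:92943535-92943784, minus strand), Adamts1 (chr16:85803114-85803363, minus strand) and Mmp25 (chr17:23645270-23645519, minus strand) fell.
Mmp14: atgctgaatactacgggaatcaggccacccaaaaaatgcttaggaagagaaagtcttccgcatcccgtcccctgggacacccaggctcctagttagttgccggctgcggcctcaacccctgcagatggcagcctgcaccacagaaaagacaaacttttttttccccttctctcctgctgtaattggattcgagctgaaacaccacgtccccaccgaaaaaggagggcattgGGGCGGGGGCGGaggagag
Adam10: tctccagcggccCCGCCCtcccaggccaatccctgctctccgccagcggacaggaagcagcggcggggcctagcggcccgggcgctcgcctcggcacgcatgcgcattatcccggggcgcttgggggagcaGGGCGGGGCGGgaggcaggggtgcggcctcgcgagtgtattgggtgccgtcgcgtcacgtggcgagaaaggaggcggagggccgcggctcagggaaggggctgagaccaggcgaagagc
Adamts9: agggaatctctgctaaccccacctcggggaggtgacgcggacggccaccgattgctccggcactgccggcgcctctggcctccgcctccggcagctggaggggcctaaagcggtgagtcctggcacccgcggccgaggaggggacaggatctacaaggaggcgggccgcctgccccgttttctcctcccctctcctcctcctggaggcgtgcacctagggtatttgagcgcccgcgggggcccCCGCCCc
Adamts1: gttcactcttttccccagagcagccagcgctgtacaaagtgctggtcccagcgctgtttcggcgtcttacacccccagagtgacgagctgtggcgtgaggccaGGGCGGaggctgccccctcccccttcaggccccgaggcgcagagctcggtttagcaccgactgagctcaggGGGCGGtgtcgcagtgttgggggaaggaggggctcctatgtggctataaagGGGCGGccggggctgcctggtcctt
Mmp25: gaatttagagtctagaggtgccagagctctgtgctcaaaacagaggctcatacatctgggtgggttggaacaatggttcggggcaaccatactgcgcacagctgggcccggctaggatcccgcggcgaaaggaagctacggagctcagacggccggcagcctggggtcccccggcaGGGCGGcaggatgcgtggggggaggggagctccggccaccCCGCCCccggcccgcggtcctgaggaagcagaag
The window of Mmp14 holds 2 GC boxes side by side, which begin 19 and 13 bases before the start. That of Adam10 holds 3, of which the pair beginning 119 and 114 bases before the start overlaps by a base. Of the windows of genes that fell, those of Adamts1, Mmp25 and Adamts9 hold 3, 2 and 1 GC boxes. The letters therefore occur before genes that rose and before genes that fell.

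The promoter table matched 50 of the 81 members, and 8 of the 18 called ones. Only 3 of the 13 members that rose had a window. Adamts7, Adamts10 and Mmp2, the rises of at least 2-fold that reached 1 FPKM, had none. A GC box stood in the window of 3 of 3 matched members that rose, 3 of 5 that fell and 15 of 25 that were tested but not called. Of 17 matched members that were not tested, 2 had one (11.8%). The GC box occurred for 63.6% of the matched tested members, close to the 61.3% of all tested genes with a window, and the share of untested members was close to the 11.9% of all NOTEST genes. Over all genes in the promoter table the share was 35.4%. A Tcf/Lef word occurred for 4 of the 50 matched members, 8.0%, against 9.21% of all genes. A match describes letters in the window, and no binding was measured here.

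Among the secreted gelatinases, which cut denatured collagen and type IV collagen of basement membranes, Mmp2 rose and Mmp9 was not called. Mmp2 (chromosome 8, 95351227 to 95377316, mm9) had 14.9 FPKM with doxycycline and 6.62 FPKM without. This is a log2 fold change of 1.18, or 2.26-fold, and the authors' deposited table lists its q as 0. Mmp9 had 0.123 FPKM with doxycycline and 0.14 FPKM without, with q = 0.942 in the authors' deposited table.

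The membrane-type Mmps moved in both directions, with 2 rises and 1 fall among 6 tested (50.0% called, against 23.2% of all tested genes). Mmp14 (chromosome 14, 55050441 to 55060095, mm9), which anchors in the membrane and is known to activate the Mmp2 precursor in a complex with Timp2, had 14.8 FPKM with doxycycline and 11.2 FPKM without. Its log2 fold change of 0.40 had q = 1.66e-06 in the authors' deposited table. Mmp17, which is held in the membrane by a lipid anchor, rose to 4.28 FPKM with doxycycline, against 3.01 FPKM without (log2 fold change 0.51, q = 1.98e-06 in the authors' deposited table). Mmp25, the other lipid-anchored member, had the largest fall of all 53 tested members in fold. It stood at 5.0 FPKM with doxycycline and 9.21 FPKM without (chromosome 17, 23766425 to 23782236, mm9; log2 fold change -0.88, with a q of 0 in the authors' deposited table). The 2 genes of the same anchor type thus moved in opposite directions. Mmp15 was not called, at 3.79 FPKM with doxycycline and 3.38 FPKM without (q = 0.233 in the authors' deposited table), and Mmp16 and Mmp24 were not called and lay under 1 FPKM.

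The order by level of the 22 Mmp rows that match the symbol rule therefore differed between the groups. With doxycycline Mmp2 was the highest, Mmp14 the second and Mmp25 the third, with 31.7%, 31.4% and 10.6% of the summed FPKM of the 22 Mmp rows. Without doxycycline Mmp14 was the highest at 29.3%, Mmp25 the second at 24.0% and Mmp2 the third at 17.3%. The sums themselves were 47.2 FPKM with doxycycline and 38.3 FPKM without. A row that names Mmp11 together with Gm867 is not among them and stood at 7.96 FPKM with doxycycline and 5.47 FPKM without, above Mmp25 with doxycycline. These shares are descriptions with no test, and the values of Mmp2 and Mmp14 with doxycycline lie too close to be put in order without an error.

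The other Mmp members were low. Mmp23, an Mmp with an N-terminal membrane anchor, was the only further member above 1 FPKM, at 1.41 FPKM with doxycycline and 2.25 FPKM without, and just missed the call (q = 0.0507 in the authors' deposited table). No collagenase was called. Mmp13 was the only one tested, at 0.128 FPKM with doxycycline and 0.106 FPKM without, while Mmp1a and Mmp8 lay at or under 0.00249 FPKM and Mmp1b was listed at 0 in both groups. The stromelysins Mmp3 and Mmp10 and the macrophage elastase Mmp12 were tested and not called, with the highest value, 0.722 FPKM, for Mmp10 with doxycycline. Mmp19, Mmp21 and Mmp28 were tested and not called at up to 0.142 FPKM. Mmp7, Mmp20 and Mmp27 were not tested.

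Among the 9 somatic Adam genes with a catalytic site, 8 were tested, 2 rose and 1 fell (37.5% called, against 23.2% of all tested genes). Adam10 (chromosome 9, 70526804 to 70628036, mm9), the main sheddase of Notch receptors and of several cadherins, had 8.60 FPKM with doxycycline and 6.61 FPKM without. The log2 fold change was 0.38 with q = 0.000151 in the authors' deposited table. Adam9 rose by less, to 5.26 FPKM with doxycycline against 4.29 FPKM without (log2 fold change 0.29, q = 0.013 in the authors' deposited table). Adam19, known from heart valve and septum development in mice, fell to 2.96 FPKM with doxycycline, against 4.85 FPKM without (log2 fold change -0.71, q = 1.27e-09 in the authors' deposited table). A row of predicted genes at the Adam19 locus lay on the same side without a call, at 2.03 FPKM with doxycycline and 2.92 FPKM without. Adam15 and Adam17 were the highest Adam members in both groups, where a joint row of Adam1a and Mapkapk5 is not a member. Adam15 had 18.8 FPKM with doxycycline and 16.2 FPKM without, and Adam17, the sheddase of tumour necrosis factor and of many growth factor precursors, 14.2 FPKM with doxycycline and 12.6 FPKM without. Adam15 shares its locus with Efna4, an ephrin gene, which rose to 15.9 FPKM with doxycycline, against 11.1 FPKM without in the authors' deposited table. Neither Adam15 nor Adam17 was called, with q = 0.413 for Adam15 and q = 0.363 for Adam17 in the authors' deposited table. Adam8, Adam28 and Adam33 were tested under 1 FPKM and not called, and Adam12 was not tested.

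Adam11, Adam22 and Adam23 lack a working catalytic site and are known mainly from neurons, where they act as receptors or adhesion proteins. Adam11 rose to 2.50 FPKM with doxycycline, against 1.57 FPKM without (log2 fold change 0.67, q = 0.0159 in the authors' deposited table). Adam23, at 10.3 FPKM with doxycycline and 11.1 FPKM without, and Adam22, at 1.66 FPKM with doxycycline and 1.64 FPKM without, had no call, with q = 0.509 for Adam23 and q = 0.988 for Adam22 in the authors' deposited table. Of the 19 Adam genes counted as testis or epididymis genes, 3 were tested (Adam2, Adam4 and Adam32), none was called, and no value exceeded 0.19 FPKM. Of these 19, 7 were listed at 0 in both groups and 3 in one group.

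The Adamts family held the most calls. Of 16 tested genes, 7 rose, 2 fell and 7 had no call in the authors' deposited table, which is 56.2% called against the 23.2% of all tested genes. Of the 4 members that rose at least 2-fold, 3 were Adamts genes.

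Adamts10 and Adamts6 are related proteases, of which Adamts10 is known to bind fibrillin microfibrils. Adamts10 (chromosome 17, 33661149 to 33690727, mm9) was the highest Adamts gene in both groups, at 11.3 FPKM with doxycycline and 4.74 FPKM without. The log2 fold change was 1.26, or 2.39-fold, and the authors' deposited table lists its q as 0. Adamts6 reached 1.06 FPKM with doxycycline and stood at 0.569 FPKM without (log2 fold change 0.89, q = 0.00254 in the authors' deposited table). Both members of the pair thus rose.

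Adamts7, which cuts cartilage oligomeric matrix protein, had the largest called fold of all members. It stood at 3.94 FPKM with doxycycline and 1.22 FPKM without (chromosome 9, 90057816 to 90165642, mm9; log2 fold change 1.69, 3.22-fold, q = 8.88e-08 in the authors' deposited table). That locus is shared with Tbc1d2b, which also rose, to 2.64 FPKM with doxycycline against 2.03 FPKM without in the authors' deposited table. Reads of genes at a shared locus may not be separable, because the library protocol mentions no marking of strand. Adamts12, the closest relative of Adamts7, was not tested, at 0.0237 FPKM with doxycycline and 0.0584 FPKM without. Adamts19 rose to 0.83 FPKM with doxycycline, against 0.528 FPKM without (log2 fold change 0.65, q = 7.36e-05 in the authors' deposited table). Adamts18 had the largest ratio of any tested member but was not called, at 0.132 FPKM with doxycycline and 0.0261 FPKM without (q = 0.0934 in the authors' deposited table). Adamts13, which cuts von Willebrand factor, and Adamts17 were tested and not called, and Adamts16 was not tested.

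The proteases known to cut aggrecan or versican, large proteoglycans of the matrix, split by direction, with 3 rises and 2 falls among 6 tested. This is 83.3% called, against 23.2% of all tested genes. The falls were in the genes with higher levels. Adamts9 fell to 1.96 FPKM with doxycycline, against 2.97 FPKM without (log2 fold change -0.60, q = 2.04e-05 in the authors' deposited table). Adamts1 fell to 0.943 FPKM with doxycycline, against 1.46 FPKM without (log2 fold change -0.63, q = 0.000419 in the authors' deposited table). Adamts15 lay on the same side, at 0.973 FPKM with doxycycline and 1.18 FPKM without, but was not called (q = 0.0543 in the authors' deposited table). The rises were all under 1 FPKM in both groups. Adamts8 had 0.651 FPKM with doxycycline and 0.338 FPKM without (q = 4.5e-06 in the authors' deposited table). Adamts4 had 0.618 FPKM with doxycycline and 0.404 FPKM without (q = 0.0107 in the authors' deposited table). Adamts20, known in mice from the belted coat-colour mutants, had 0.277 FPKM with doxycycline and 0.13 FPKM without (q = 0.0125 in the authors' deposited table). Summed over the 7 genes of the group, the values were 5.49 FPKM with doxycycline and 6.54 FPKM without. Adamts5 was not tested.

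The procollagen N-proteinases Adamts2, Adamts3 and Adamts14 were tested and not called, at no more than 0.466 FPKM. The Adamts-like proteins have the ancillary domains of Adamts proteases without the protease domain. Of 5, 3 were tested (Adamtsl1, Adamtsl4 and Adamtsl5) and none was called, with a highest value of 0.801 FPKM for Adamtsl5 with doxycycline.

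Of the 4 inhibitors, 1 fell and 3 were not called (25.0% called, near the 23.2% of all tested genes). Timp1 was the highest, at 8.96 FPKM with doxycycline and 10.9 FPKM without (q = 0.288 in the authors' deposited table). Timp2, the partner of Mmp14 in Mmp2 activation, had 4.0 FPKM with doxycycline and 3.52 FPKM without (q = 0.537 in the authors' deposited table). Timp3, which binds to the matrix, had 2.60 FPKM with doxycycline and 2.98 FPKM without (q = 0.476 in the authors' deposited table). Timp4 fell to 0.597 FPKM with doxycycline, against 0.986 FPKM without (log2 fold change -0.72, q = 0.00298 in the authors' deposited table). The summed Timp level was 16.1 FPKM with doxycycline and 18.4 FPKM without. Of the 3 uncalled inhibitors 2 were lower with doxycycline, so the sums differ mainly through Timp1, which was not called. Timp1, Timp3 and Timp4 share their loci with the synapsin genes Syn1, Syn3 and Syn2, of which Syn3 fell to 2.06 FPKM with doxycycline, against 2.57 FPKM without in the authors' deposited table.

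**Figure D3:**
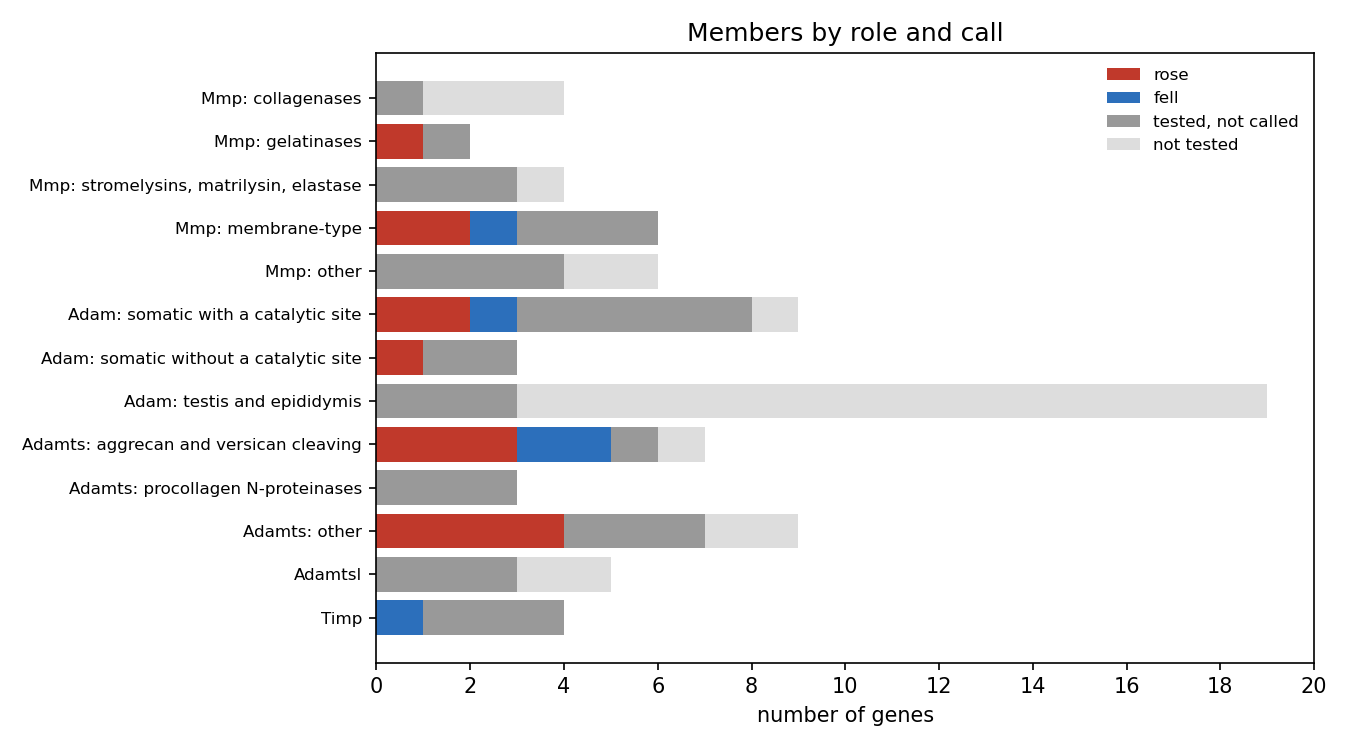
Number of genes (horizontal axis) in each role group of the 81 members, split into genes that rose, fell, were tested without a call, or were not tested. The testis and epididymis Adam genes are almost all untested. Rises are most numerous in the group of other Adamts genes, with 4 of 7 tested (57.1%, against 10.5% of all tested genes).

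Genes that act on these proteases or with them were counted from lists of the wider pathway. In plasminogen activation, a serine protease cascade that also activates Mmp precursors, none of 9 tested genes rose, 3 fell and 6 had no call in the authors' deposited table. Serpine2, an inhibitor of plasminogen activators and thrombin, fell to 6.66 FPKM with doxycycline, against 14.1 FPKM without, and the membrane serine protease gene Hpn to 5.58 FPKM with doxycycline, against 10.2 FPKM without (q listed as 0 for Serpine2 and q = 2.15e-07 for Hpn in the authors' deposited table). Plat, tissue plasminogen activator, fell to 1.5 FPKM with doxycycline, against 1.96 FPKM without (q = 0.0124 in the authors' deposited table). The called share was 33.3% of the list, all of it falls, against 23.2% called and 12.7% fallen of all tested genes. The median log2 fold change of the list was -0.22, against -0.03 over all tested genes.

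Proprotein convertases cut many precursors, including those of membrane-type Mmps, Adams and Nodal. Some astacin proteases, a separate family counted in the same list, process procollagens. Of 12 tested genes of this list, 5 rose, 3 fell and 4 had no call in the authors' deposited table, which is 66.7% called against the 23.2% of all tested genes, with a median log2 fold change of 0.28. Pcsk6 rose to 4.43 FPKM with doxycycline, against 2.26 FPKM without, and Bmp1, a procollagen C-proteinase, to 4.2 FPKM with doxycycline, against 2.86 FPKM without. Pcsk1 rose to 1.49 FPKM with doxycycline, against 0.966 FPKM without. Mbtps1, the site-1 protease gene, rose to 27.9 FPKM with doxycycline, against 24.5 FPKM without (q = 0.0249 in the authors' deposited table). Pcsk4 fell to 2.67 FPKM with doxycycline, against 3.61 FPKM without, and only just passed the threshold (q = 0.0497 in the authors' deposited table). Furin fell to 5.63 FPKM with doxycycline, against 7.41 FPKM without (q = 0.000318 in the authors' deposited table). Pcsk6 and Furin, which share substrates, thus moved in opposite directions.

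Among 11 tested regulators, 1 rose and 2 fell in the authors' deposited table, with a median log2 fold change of -0.04. The called share of 27.3% was near the 23.2% of all tested genes. Rhbdf1, which encodes iRhom1, a carrier of Adam17 to the cell surface, rose to 14.6 FPKM with doxycycline, against 10.2 FPKM without. The tetraspanin genes Tspan15 and Tspan17, whose products bind Adam10 and steer its maturation, fell to 1.19 and 3.32 FPKM with doxycycline, against 1.80 and 5.24 FPKM without. Other tetraspanin genes of the list had no call in the authors' deposited table, with Tspan14 at 19.0 FPKM with doxycycline and 19.9 FPKM without and Tspan33 at 3.58 FPKM with doxycycline and 3.68 FPKM without, and Tspan5, at 19.7 FPKM with doxycycline and 22.7 FPKM without, had no completed test (all named after their values were seen). The membrane-bound Mmp inhibitor gene Reck, at 1.90 FPKM with doxycycline and 2.01 FPKM without, was not called (q = 0.821 in the authors' deposited table; named after its values were seen).

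Known substrates were mixed. Of 19 tested genes for proteins that Adams shed, 2 rose, 4 fell and 13 had no call in the authors' deposited table (31.6% called against 23.2% of all tested genes; median log2 fold change -0.14). The Notch ligand gene Jag1 rose to 3.04 FPKM with doxycycline, against 1.90 FPKM without. Cdh1, encoding E-cadherin, fell to 99.7 FPKM with doxycycline, against 134 FPKM without. Hbegf fell to 1.04 FPKM with doxycycline, against 1.45 FPKM without. Notch2 fell by less, to 2.93 FPKM with doxycycline against 3.46 FPKM without (q = 0.0143 in the authors' deposited table). So did Notch3, to 6.46 FPKM with doxycycline against 7.3 FPKM without (q = 0.0381 in the authors' deposited table). Notch1 was not called, at 3.13 FPKM with doxycycline and 2.51 FPKM without (q = 0.44 in the authors' deposited table; named after its values were seen). Of 12 tested Adamts substrates, 2 rose and 3 fell in the authors' deposited table (41.7% called against 23.2% of all tested genes; median log2 fold change -0.04). Col1a1 rose to 4.43 FPKM with doxycycline, against 1.11 FPKM without, and Ltbp1, a latent TGF-beta binding protein gene, fell to 2.00 FPKM with doxycycline, against 3.07 FPKM without. Vcan, encoding versican, was not called at 4.51 FPKM with doxycycline and 6.39 FPKM without (q = 0.0848 in the authors' deposited table; named after its values were seen).

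Markers of the culture and of other cells moved beside these genes. Of 9 tested pluripotent cell markers 3 rose, 3 fell and 3 had no call in the authors' deposited table, which is 66.7% called against the 23.2% of all tested genes. Pou5f1 was not called at 1058 FPKM with doxycycline and 999 FPKM without. Nanog rose to 117 FPKM with doxycycline, against 46.0 FPKM without, and Utf1 fell to 119 FPKM with doxycycline, against 314 FPKM without (q listed as 0 for both in the authors' deposited table). Of 14 tested fibroblast markers, which could report leftover feeder cells, 3 rose, 5 fell and 6 had no call in the authors' deposited table. This is 57.1% called and 35.7% fallen, against 23.2% and 12.7% of all tested genes. None of these markers was listed at 0. The 15 rows summed to 67.5 FPKM with doxycycline and 96.6 FPKM without. Tagln, at 36.5 FPKM with doxycycline and 56.9 FPKM without, and Acta2, at 9.92 FPKM with doxycycline and 18.9 FPKM without, were the highest rows. Without Tagln and Acta2, left out for their level alone, the other 13 rows summed to 21.1 FPKM with doxycycline and 20.8 FPKM without. In that sum rises and falls of single markers offset each other. Col1a1, Col5a1 and Prrx1 were the 3 that rose, with Col1a1 at 4.43 FPKM with doxycycline and 1.11 FPKM without. The 5 that fell were Tagln, Acta2, Thy1, Dcn and Pdgfrb, with Thy1 at 6.42 FPKM with doxycycline and 9.34 FPKM without. Primitive and parietal endoderm, from the outer layer of embryoid bodies, had 8 of 14 tested markers that fell, 57.1% against 12.7% of all tested genes. None rose in the authors' deposited table. That list also holds the visceral endoderm markers Amn, Cubn, Afp and Ttr. Its sums were 453 FPKM with doxycycline and 560 FPKM without. They include Dab2, which had no completed test, at 56.6 FPKM with doxycycline and 85.2 FPKM without. Of 9 tested blood and endothelial markers 6 fell and 1 rose in the authors' deposited table, which is 77.8% called and 66.7% fallen against 23.2% and 12.7% of all tested genes. Those that fell included Etv2, at 1.47 FPKM with doxycycline and 5.15 FPKM without, and Cd34, at 1.45 FPKM with doxycycline and 2.40 FPKM without. The embryonic globin gene Hba-x fell from a very low level, at 0 with doxycycline and 0.0999 FPKM without. Pecam1 was the 1 that rose, to 5.14 FPKM with doxycycline, against 2.50 FPKM without. The list summed to 10.5 FPKM with doxycycline and 13.4 FPKM without. The leukocyte gene Ptprc was not tested, at 0.00526 FPKM with doxycycline and 0.0216 FPKM without. Of 7 tested trophoblast markers 1 fell and none rose. The called share was 14.3%, against 23.2% called and 12.7% fallen of all tested genes, so the share of falls was near the background. The trophoblast sums were 4.34 FPKM with doxycycline and 4.87 FPKM without, and Prl3d1 was listed at 0 in both groups. The part of these cell types in the changes of the protease genes was not tested.

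**Figure D4:**
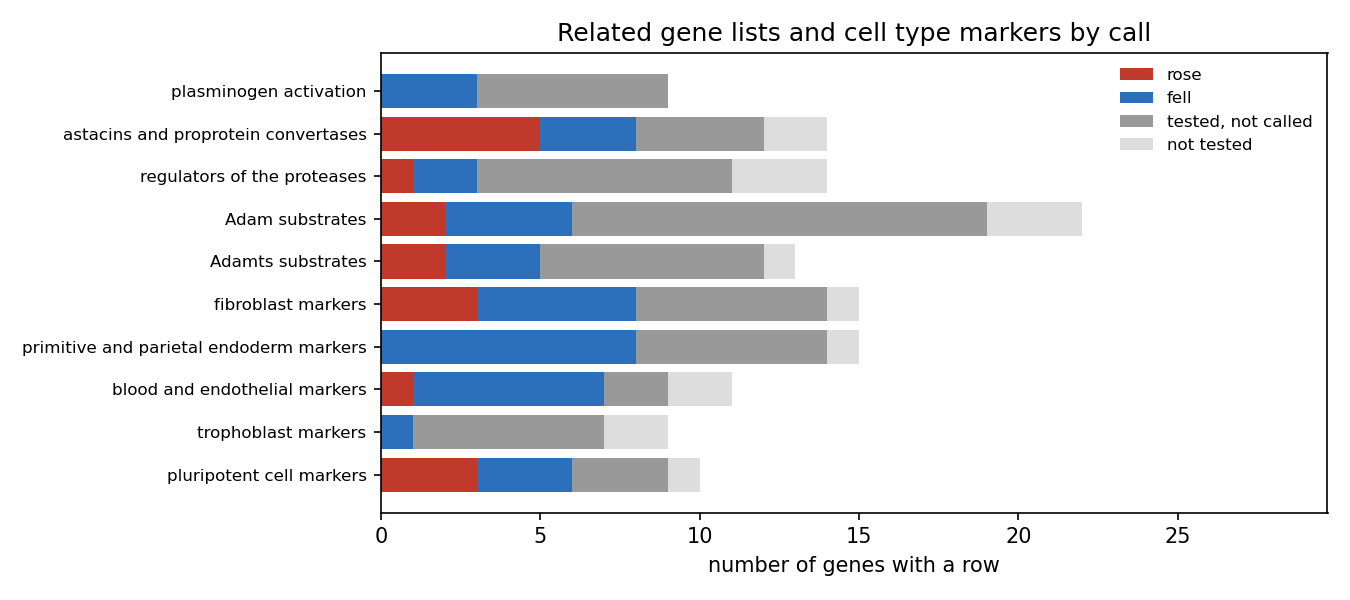
Number of genes with a row (horizontal axis) in each related list and each cell type marker list, split into genes that rose, fell, were tested without a call, or were not tested. Rises outnumber falls only in the astacins and proprotein convertases (5 and 3), and the pluripotent cell markers had 3 of each. Falls outnumber rises in every other list, among them plasminogen activation (3 and 0) and the primitive and parietal endoderm markers (8 and 0). Of all tested genes, 12.7% fell and 10.5% rose.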

How the data were processed

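The submitters' processing notes name the mouse build mm9 and, for the 6 libraries, Cuffdiff, Cufflinks 2.0.2, Picard, Bowtie and TopHat2 2.0.8. Neither the gene annotation nor the scaling of libraries is given in the sources used here. The FPKM values were deposited by the authors as 1 value per group, so depth and library spread are unknown. Whether the libraries of a group are separate cultures is not stated in the labels; the p-values may therefore measure technical spread only. The deposited p-values and q-values are the authors' Cuffdiff test, and their log2 fold changes were handled as a score because groups at 0 give placeholder values; the deposited log2 column matched the ratio of group values to within 1.31e-05.

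Counts, medians and ratios (no pseudocount) were computed with Python 3.11.15 and pandas 2.3.3. Benjamini-Hochberg q-values cover all 18537 tested rows; recomputed, they matched to within 1.79e-06. Its code was tested on simulated data. Of the 51 members alone at their locus with 1 GENCODE vM21 entry, 26 spans equalled the GENCODE length when starts were read as 0-based and 1 when read as 1-based, so 1 was added to starts. With Gapdh listed at 0 in both groups, a 0 was read as listed, not as absence. With group values only, the design's alternative for values per library was not used. Members and lists were chosen with earlier results of these data known. Named genes were members with a call, uncalled tested members at 1 FPKM or more, and called genes of related lists at 1 FPKM or more (up to 6 by fold). Other members are named to account for every member, and genes of the marker lists were chosen after their values were seen. Alternatives were a q threshold of 0.01, Bonferroni adjustment, rows at 1 FPKM or more, unshared loci, a 2-fold minimum, pseudocounts and centring.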

Additional observations from a re-analysis of the deposited data

How the results depend on the processing

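With Bonferroni adjustment 9 members stayed called (6 higher, 3 lower), and with a 2-fold minimum 4 (4 higher, 0 lower); both rules are stricter by construction. Of the 5 falls, 2 were at loci shared with no other row. At q under 0.01, 14 members were called and Adamts4, Adam11, Adamts20 and Adam9 were not. Over genes at 1 FPKM or more, Mmp23 and Adamts15 also passed. The members' median log2 fold change was 0.139, and 0.09 or 0.02 with a pseudocount of 0.1 or 1 FPKM; at 1 FPKM or more it was 0.167. Centring on the all-gene median of -0.029 and the pseudocounts reversed no called member. The astacins and proprotein convertases kept 5 calls at q under 0.01, and Mbtps1 and Pcsk4 were among those lost. Over genes at 1 FPKM or more the Adamts substrates had 2 and the blood and endothelial markers 3. No paired analysis was possible because the table holds 1 value per group; leaving out replicates was not run for that reason. Unknown depth limits genes under 1 FPKM most.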

Other observations

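Members within 100 kb of each other formed 10 clusters, of which 3 held a called gene and 7 held none. The clusters of Adam6b and Adam6a, of Adam24, Adam25 and Adam39, and of Adam26b, Adam26a and Adam34 held no tested gene. No call was possible there. In the other clusters without a call every value lay under 1 FPKM, a level at which 13.2% of all tested genes were called. The 10 Mmp genes on chromosome 9 between 7272514 and 7699585 (mm9), Mmp13, Mmp12, Mmp1b, Mmp3, Mmp1a, Mmp10, Mmp8, Mmp27, Mmp20 and Mmp7, held 4 tested genes and no call, with highest values of 0.722 FPKM with doxycycline and 0.648 FPKM without. On chromosome 8, Adam9 stands at the end of a row of 5 Adam genes between 25712718 and 26127394. It rose, at 5.26 FPKM with doxycycline and 4.29 FPKM without, while its neighbours Adam18, Adam3, Adam5 and Adam32 did not exceed 0.0862 FPKM in either group. On chromosome 9, between 30706740 and 30771423, Adamts8 rose, and its neighbour Adamts15 was not called and was lower with doxycycline. On chromosome 16, Adamts1 fell and its neighbour Adamts5, at 0.0593 FPKM with doxycycline and 0.0558 FPKM without, was not tested.

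A pair of rows that name a family member together with another gene fell outside the rule. The row of Gm867 and Mmp11, a stromelysin, had 7.96 FPKM with doxycycline and 5.47 FPKM without and was not called (q = 0.0589 in the authors' deposited table). The row of Adam1a and Mapkapk5 had 43.9 FPKM with doxycycline and 40.8 FPKM without and was not called (q = 0.832 in the authors' deposited table).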
